A study of Mus musculus with 6 samples.

Results

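The genes described here encode the general transcription machinery of RNA polymerase II (Pol II). They were chosen by name alone from the table of read counts, as protein-coding genes whose symbol begins with Gtf2, Polr2, or Taf or Med followed by a digit, together with Tbp and Tbpl1. The rule found 84 of the 26743 genes in the table, of which 19296 are protein-coding. It used no measured value, and all 84 passed edgeR's filter on low counts, so none was lost from the comparison. Because the rule reads names, it also takes in 9 genes whose products are not general factors of Pol II, namely 3 subunits of the Pol I factor SL1, 3 members of the TFII-I family, 2 TAF-like subunits of the coactivator SAGA and the RNA-binding protein TAF15.

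RNA was sequenced from whole testes of wild-type (WT) and Trf2-/- male mice, with 3 libraries of each, at post natal day 21, when the first round spermatids are present. Trf2 (also called TLF) is the TBP-related factor that the table lists as Tbpl1, and the study asked how its loss changes testis gene expression. The labels give the genotype, age and tissue of each library, and the allele and strain of the knockout are not given in the labels. The testis holds germ cells at several stages beside Sertoli, Leydig, peritubular and immune cells, and its composition at this age depends on how far the first wave of spermatogenesis has come. Whether a library holds the testes of 1 animal or of several is not stated in the sources used here. Each library is called a mouse below, and the p-values measure the spread between libraries of 1 genotype.

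Transcription by Pol II starts when a pre-initiation complex assembles on a promoter. TFIID, made of the TATA-binding protein TBP and its associated factors (TAFs), recognises the promoter, TFIIA and TFIIB stabilise it there, TFIIF brings Pol II, and TFIIE and TFIIH open the DNA, while Mediator relays signals from bound activators. Male germ cells make variant forms of several of these factors, among them TRF2, the TFIIA subunit ALF (listed as Gtf2a1l), TAF7L and TAF4B, next to the forms found in most cells. TRF2 binds TFIIA as TBP does but does not recognise a TATA box.

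The machinery was strongly represented in WT testis. Per length of gene (RPKM, counts scaled to the library and to the deposited gene length in kilobases), the median level of the 84 members in WT was 22.0, compared with 6.50 over all 16924 genes tested and 7.75 over the protein-coding ones. The levels differed widely between members, from 1.95 ± 0.177 RPKM for Med14 to 186 ± 1.70 for Taf9 (SD, n = 3 mice each). Among the members of TFIID, Taf9 was the highest and Taf13 the lowest at 3.43 ± 0.298. In Pol II the highest was Polr2b, the second largest subunit, at 68.4 ± 0.975 RPKM, and the lowest was Polr2l, a small subunit shared with Pol I and Pol III, at 3.94 ± 0.454. In Mediator, Med10 stood highest at 103 ± 6.51 RPKM and Med14, its scaffold, lowest.

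**Figure D1:**
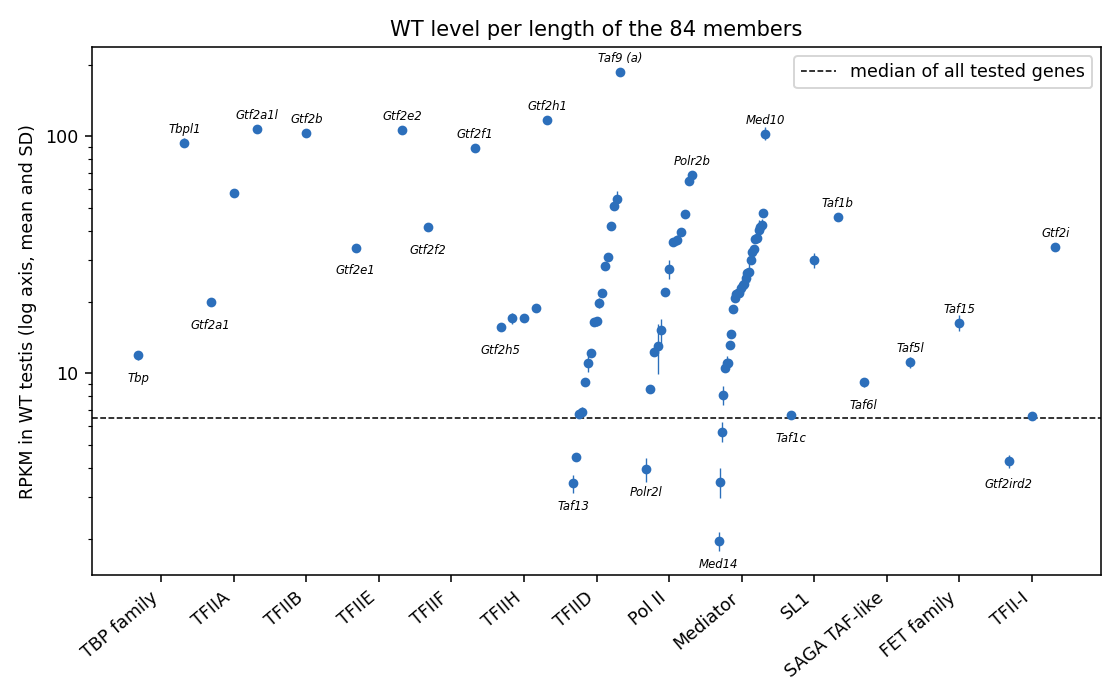
Level per length of the 84 members in WT testis, grouped by complex (RPKM on a log axis, points are means and bars SDs over 3 mice), with the median of all tested genes (6.50) as a dashed line. The highest and lowest member of each complex is named, Taf9 (a) being the first of 2 entries for Taf9, and most members lie above the dashed line.

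Trf2-/- testis had lower RNA from 27 of the 84 members (32.1%) and higher RNA from 4 (4.76%) when edgeR's quasi-likelihood test was applied with an adjusted p below 0.05, and 53 did not pass. Over all genes tested, 20.2% were lower and 11.2% higher by the same rule. The decreases were mostly small, since 3 members (3.57%, against 4.3% of all genes tested) were at least 2-fold lower, namely Tbpl1, Taf6 and Gtf2ird2, and none was at least 2-fold higher (0.609% of all genes). Tbpl1 is the gene knocked out, and without it 26 of 83 members (31.3%) were lower, 2 of them at least 2-fold. Of the members, 43 had a log2 fold change below 0 and 41 above 0, and their median log2 fold change was -0.0027 beside 0.037 for all genes tested. The 3 WT and the 3 Trf2-/- values did not overlap for 32 members that were lower (38.1%, against 26.8% of all genes) and 18 that were higher (21.4%, against 22.3%). In whole tissue, fewer cells of a type and less RNA per cell cannot be told apart.

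The split between lower and higher depended on how libraries were scaled. With library size alone, in place of the TMM factors used here, 18 members were lower and 25 higher, beside 15.9% and 25.2% of all genes, and the median of the members moved to 0.092 and that of all genes to 0.131. All the members called lower under library size, DESeq2's size factors, DESeq2's own test, either of the other filters or a replicate block were among the 27.

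**Figure D2:**
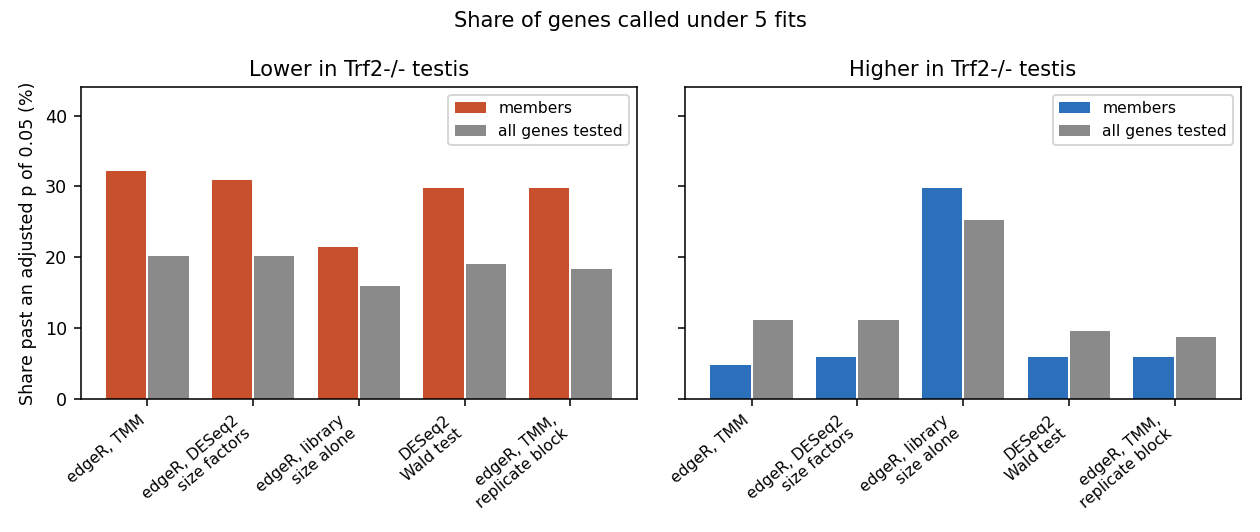
Share of the 84 members and of all genes tested that passed an adjusted p of 0.05 as lower (left) or higher (right) in Trf2-/- testis, under 5 fits that differ in scaling, test or block. The share of members called higher is below that of all genes in 4 fits and above it with library size alone, where 25 members were called.

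Germ cell markers moved with genotype beside these genes. All 6 markers of pachytene spermatocytes were lower (median log2 fold change -0.47), and their summed level ran from 4966 to 5377 CPM (counts scaled to the TMM-adjusted library size) in WT and from 3383 to 4123 in Trf2-/- mice. Their falls were uneven, with log2 fold changes from -0.16 (Mybl1) to -1.63 (Ccna1). Ldhc held the largest part of the pachytene sum, at a mean of 2279 CPM in WT and 1407 CPM in Trf2-/- mice. Of 8 round spermatid genes 7 were lower (median -2.19), their sum falling from between 146 and 154 CPM to between 60.7 and 93.0. Acrbp made up most of that sum, at a mean of 131 CPM in WT and 70.9 CPM in Trf2-/- mice. The median rests on genes with few reads, since Catsper3, Tssk2, Spaca7, Catsper4 and Acrv1 had means of 0.587 to 1.29 CPM in WT. Both tested genes of 5 elongating spermatid genes were lower, with sums of 4.04 to 4.44 CPM in WT and 0.794 to 1.24 CPM in Trf2-/- mice. None of the early spermatocyte (3 of 6 higher), spermatogonial (1 of 7 higher), Sertoli (2 of 6 higher), Leydig (1 of 6 higher), peritubular (1 of 4 higher) or macrophage genes (3 of 6 higher) was lower. No marker that was read was at 0 in all mice. Meiob, Rhox5, Prm1 and Tnp2 were planned as markers too but were not among the genes read. Trf2-/- mouse 3 stood apart from its group, with the lowest sums of pachytene (3383 CPM, against 3929 and 4123 in mice 1 and 2) and round spermatid markers (60.7 CPM, against 86.8 and 93.0), and with a chi-square over genes of 8.01 and 7.70 times its degrees of freedom against the others, compared with 2.76 to 4.97 in the remaining pairs of a genotype. It was the lowest of the Trf2-/- mice for 17 of the 27 lower members (63%), as it was for 75.2% of all genes called lower. Without it 25 members were lower and 3 higher, beside 19.3% and 11% of all genes. The part of these shifts in the changes of the members was not tested.

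**Figure D3:**
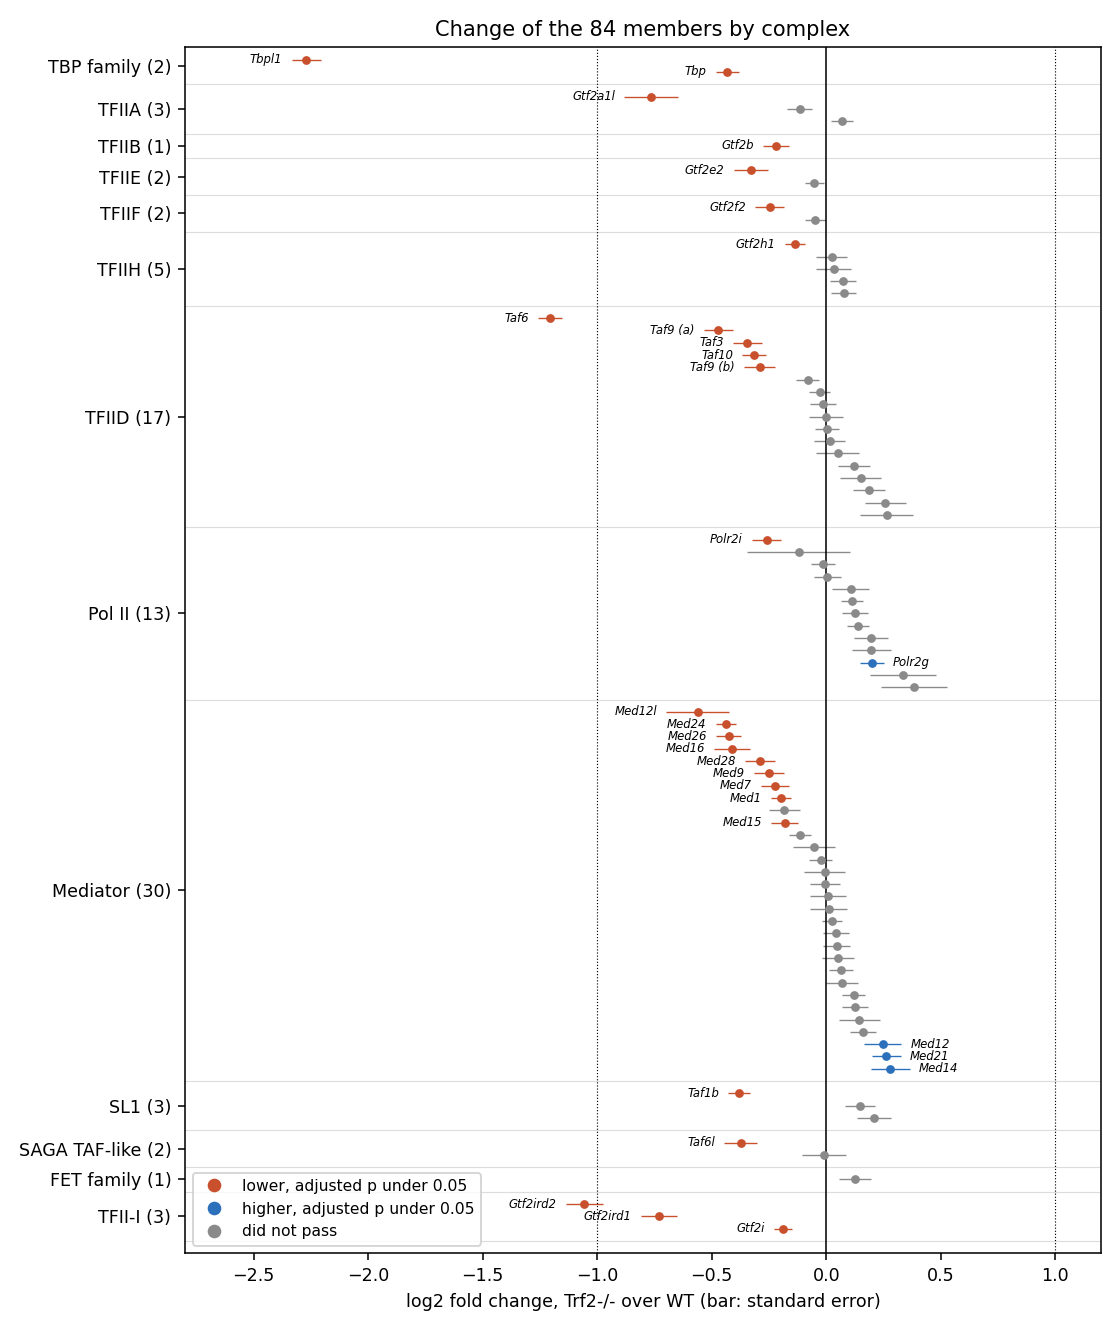
Fitted log2 fold change of each of the 84 members, Trf2-/- over WT, with its standard error, grouped by complex (number of members in brackets), and dotted lines at 2-fold. Members past the adjusted p are named (Taf9 (a) and (b) are the entries of Taf9 described in the text), with Tbpl1 at -2.27 and Taf6 at -1.21 farthest to the left and none of the 4 higher members beyond 0.28.

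The TBP family has both of its members in the list lower, beside 20.2% of all genes tested, and Tbpl1 among them is the gene knocked out. Tbpl1 (ENSMUSG00000071359, NCBIM37 chr10:22423685-22451744) was read at 308, 283 and 294 CPM in WT mice 1 to 3 and at 62.9, 64.3 and 55.8 CPM in Trf2-/- mice 1 to 3. Its log2 fold change was -2.27 (standard error 0.06, edgeR quasi-likelihood adjusted p = 1.18e-06), a fall of 79.3%, so the counts followed the labels in every mouse while reads on the gene remained. Which exons the remaining reads came from cannot be told from a table of gene counts, and the gene shares 12.4% of its exon bases with Slc2a12 on the opposite strand, which was higher (log2 fold change 0.39, adjusted p = 0.00636 from the same test). Tbp (ENSMUSG00000014767, chr17:15636852-15665343) was read at 164, 152 and 157 CPM in WT and at 122, 116 and 113 CPM in Trf2-/- mice. No Trf2-/- mouse reached the lowest WT value, and the log2 fold change was -0.43 (standard error 0.05, edgeR quasi-likelihood adjusted p = 0.000622), a fall of 25.8%. Tbp shares 19.3% of its exon bases with Pdcd2 on the opposite strand, which had a log2 fold change of 0.02. Per length, Tbpl1 exceeded Tbp in WT testis, at 94.0 ± 3.99 against 11.9 ± 0.476 RPKM. The deposited gene lengths are 3138 bases for Tbpl1 and 13266 for Tbp, so the size of this gap depends on them. In CPM, the means of Tbpl1 and Tbp were 295 and 158 in WT and 61.0 and 117 in Trf2-/- mice.

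The promoters of these genes are shown next to those of the germ cell TFIIA subunit, of Taf6 and of Taf7l, since these members carry the largest changes or belong to the germ cell forms. Each is the RefSeq window of GRCm38.p6 (a later build than the NCBIM37 of the counts) from 250 bases before to 50 bases after an annotated start, 5′ to 3′ on the gene's strand, with capitals marking the words TATAAA, the core of a TATA box, or GGGCGG, a GC box, on either strand. Tbpl1 lies at chr10:22731398-22731697 (minus strand), Tbp at chr17:15499638-15499937 (plus strand), Gtf2a1l at chr17:88668410-88668709 (plus strand), Taf6 at chr5:138187177-138187476 (minus strand, the first of 2 windows listed) and Taf7l at chrX:134476441-134476740 (minus strand).
Tbpl1: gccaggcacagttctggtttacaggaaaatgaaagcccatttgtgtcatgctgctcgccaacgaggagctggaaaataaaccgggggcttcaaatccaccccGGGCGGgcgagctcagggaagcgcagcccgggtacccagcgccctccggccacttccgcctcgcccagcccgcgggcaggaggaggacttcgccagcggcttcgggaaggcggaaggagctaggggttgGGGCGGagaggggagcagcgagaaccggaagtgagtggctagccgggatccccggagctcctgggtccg
Tbp: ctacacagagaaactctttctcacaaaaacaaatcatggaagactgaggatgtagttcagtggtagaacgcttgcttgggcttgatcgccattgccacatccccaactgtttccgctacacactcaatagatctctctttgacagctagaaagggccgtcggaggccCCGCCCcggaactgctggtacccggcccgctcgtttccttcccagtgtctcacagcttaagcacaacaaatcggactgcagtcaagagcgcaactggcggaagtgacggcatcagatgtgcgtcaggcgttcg
Gtf2a1l: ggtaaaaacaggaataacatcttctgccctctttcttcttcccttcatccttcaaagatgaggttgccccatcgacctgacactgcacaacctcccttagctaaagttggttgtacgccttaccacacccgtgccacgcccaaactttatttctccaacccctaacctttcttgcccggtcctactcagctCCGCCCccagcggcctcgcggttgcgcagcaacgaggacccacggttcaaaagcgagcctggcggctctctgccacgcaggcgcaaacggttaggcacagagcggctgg
Taf6: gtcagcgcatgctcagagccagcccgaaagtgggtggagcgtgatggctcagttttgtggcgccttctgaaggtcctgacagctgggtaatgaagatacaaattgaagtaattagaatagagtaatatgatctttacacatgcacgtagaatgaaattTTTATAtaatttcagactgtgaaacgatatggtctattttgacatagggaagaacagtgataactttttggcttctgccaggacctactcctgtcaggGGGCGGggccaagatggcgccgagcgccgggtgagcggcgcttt
Taf7l: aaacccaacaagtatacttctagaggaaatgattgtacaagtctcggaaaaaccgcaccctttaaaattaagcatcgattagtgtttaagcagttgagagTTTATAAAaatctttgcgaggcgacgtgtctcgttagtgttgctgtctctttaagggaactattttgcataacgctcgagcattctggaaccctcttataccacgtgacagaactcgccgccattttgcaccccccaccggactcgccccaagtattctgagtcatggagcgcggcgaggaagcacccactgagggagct

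The window of Tbpl1 holds 2 GC boxes and no TATAAA. Those of Tbp and Gtf2a1l hold 1 GC box each, on the other strand, and no TATAAA. Taf6 has TATAAA on the other strand and a GC box just past its start, and Taf7l has TATAAA on both strands, overlapping. Windows were listed for 72 of the 83 distinct symbols of the members, 86 windows in all. Of these, 65.1% held GGGCGG on either strand, compared with 58.6% of the 14184 windows of tested genes and 35.7% of all 32851 windows. TATAAA was found in 14.0% of member windows, 7.79% of the windows of tested genes and 13.6% of all windows, and CCAAT in 31.4%, 37.5% and 37.4%. The cAMP response element TGACGTCA was in 3 member windows (3.49%, against 2.81% and 1.79%), of Gtf2f1, Med21 and Taf11. In the 28 windows of members that were lower, GGGCGG was in 67.9%, TATAAA in 14.3%, CCAAT in 28.6% and TGACGTCA in 0 windows. None of the motif words contains another.

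In TFIIA the germ cell subunit was lower and the broadly expressed ones did not pass, beside 20.2% lower of all genes tested. Gtf2a1l encodes ALF, the germ cell relative of the large TFIIA subunit, and it was read at 175, 169 and 176 CPM in WT mice. The Trf2-/- mice gave 109, 117 and 79.6 CPM, all below WT, the third mouse lowest. Its log2 fold change was -0.77 (standard error 0.12, edgeR quasi-likelihood adjusted p = 0.00166), and -0.61 without that mouse. Gtf2a1, the large subunit of other cells, ran from 106 to 114 CPM in WT and from 111 to 118 CPM in Trf2-/- mice, which overlap (log2 fold change 0.07, edgeR quasi-likelihood adjusted p = 0.317). Gtf2a2, the small subunit, was at 112, 108 and 110.3 CPM in WT and 102, 108 and 94.6 CPM in Trf2-/- mice (log2 fold change -0.12, edgeR quasi-likelihood adjusted p = 0.142).

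**Figure D4:**
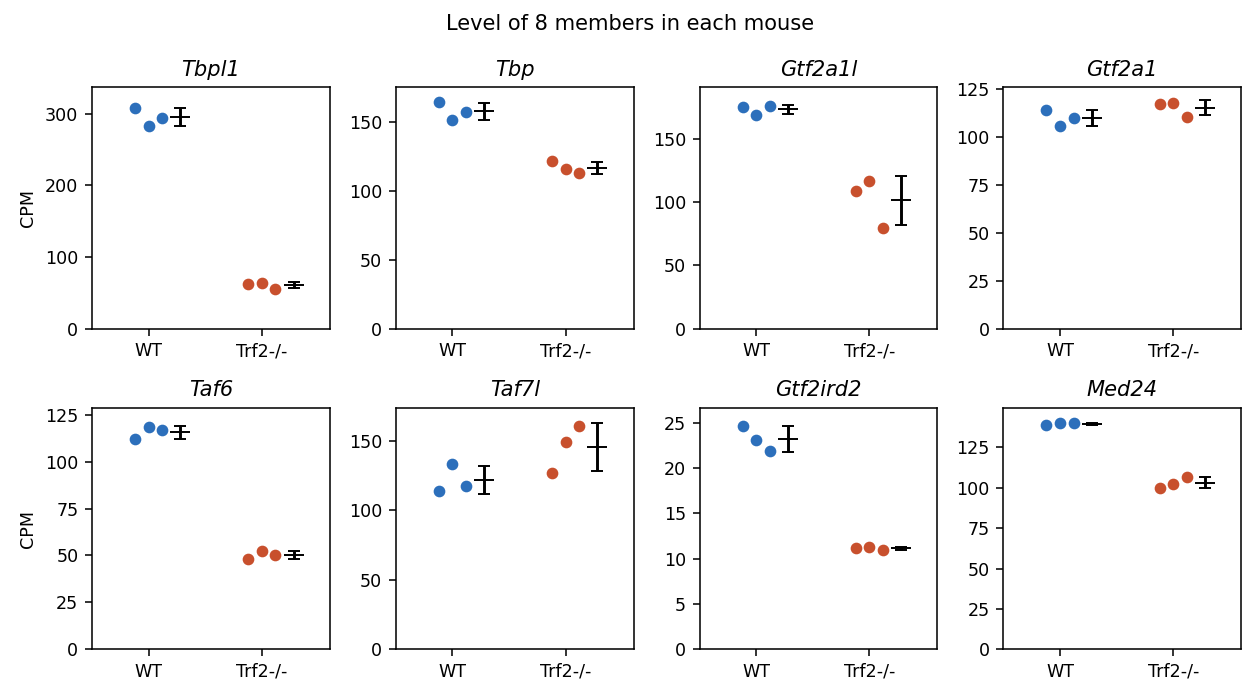
Level of 8 members in each mouse (CPM, axes from 0, black marks are the mean and SD over 3 mice). Tbpl1, Tbp, Gtf2a1l, Taf6, Gtf2ird2 and Med24 are lower in all 3 Trf2-/- mice than in any WT mouse, while the genotypes overlap for Gtf2a1 and Taf7l.

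TFIID had 5 of its 17 entries lower and none higher, beside 20.2% lower and 11.2% higher of all genes tested, with a median log2 fold change of -0.0007. Taf6, a histone-fold subunit that pairs with TAF9, was the member with the largest fall after Tbpl1. In WT mice it was read at 112, 118 and 117 CPM and in Trf2-/- mice at 47.9, 52.3 and 50.1 CPM. The genotypes were far apart and each was narrow, and the log2 fold change of -1.21 (standard error 0.05, edgeR quasi-likelihood adjusted p = 2.00e-05) is a fall of 56.7%. Taf6 (ENSMUSG00000036980, NCBIM37 chr5:138619845-138628679) shares 2.43% of its exon bases with Ap4m1 on the opposite strand, and Ap4m1 had a log2 fold change of 0.06.

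Taf9, the histone-fold partner, appears in the table under a pair of gene identifiers that start at the same base of chromosome 13 and share 196 exon bases, so reads may have been divided or dropped between them. The second may belong to a neighbouring gene and not to TFIID, and without it 4 of 16 TFIID entries and 26 of 83 members were lower. The first (ENSMUSG00000052293) was read at 247, 248 and 251 CPM in WT and at 188, 189 and 160.3 CPM in Trf2-/- mice, which do not overlap. Its log2 fold change was -0.47 (standard error 0.06, edgeR quasi-likelihood adjusted p = 0.00107), and that of the second (ENSMUSG00000078941) was -0.29 (adjusted p = 0.0121 from the same test). Taf3, which binds a histone mark of active promoters, and Taf10, another histone-fold subunit, complete the 5, with log2 fold changes of -0.34 and -0.31. They and the other members named below only to complete the count of a complex were chosen after their values were seen. Taf10 shares 45.9% of its exon bases with Ilk on the opposite strand.

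The remaining 12 TFIID entries did not pass, with log2 fold changes from -0.08 (Taf11) to 0.26 (Taf13). Taf7l, the X-linked germ cell relative of Taf7, was at 114, 133 and 117 CPM in WT and 127, 149 and 161 CPM in Trf2-/- mice. The middle WT mouse lay above the lowest Trf2-/- mouse, so the genotypes overlap (log2 fold change 0.26, standard error 0.09, edgeR quasi-likelihood adjusted p = 0.0583). Taf7l passed in 5 of the other fits and not in the rest, with adjusted p values of DESeq2 and edgeR's quasi-likelihood test between 0.0173 and 0.191. Taf4b, the relative of Taf4a made in germ cells and ovary, ran from 96.9 to 105 CPM in WT and from 103 to 123 CPM in Trf2-/- mice, which overlap (log2 fold change 0.12, edgeR quasi-likelihood adjusted p = 0.219). Taf13 was low in all mice, between 9.76 and 11.5 CPM in WT and between 11.2 and 13.9 CPM in Trf2-/- mice (log2 fold change 0.26, standard error 0.12, edgeR quasi-likelihood adjusted p = 0.117).

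TFIIB (1 member), TFIIE (2), TFIIF (2) and TFIIH (5) had 1 member lower each, none by more than 20.4%, beside 20.2% lower of all genes tested. Gtf2e2, the small TFIIE subunit, was at 195, 189.7 and 193 CPM in WT and 155, 168 and 134 CPM in Trf2-/- mice. Gtf2f2, the small subunit of TFIIF, was at 60.6, 63.0 and 58.2 CPM in WT and 48.7, 54.6 and 49.7 CPM in Trf2-/- mice. Gtf2b, which is TFIIB itself, was at 130.1, 131 and 131 CPM in WT and 113, 120.3 and 103 CPM in Trf2-/- mice. For each of these the genotypes do not overlap, and their log2 fold changes were -0.33, -0.25 and -0.22, with edgeR quasi-likelihood adjusted p values of 0.0099, 0.0168 and 0.0201. The large subunits Gtf2e1 and Gtf2f1 had log2 fold changes of -0.05 each and did not pass. Gtf2h1, the p62 subunit of TFIIH, had a log2 fold change of -0.14 (edgeR quasi-likelihood adjusted p = 0.0421), and the 4 other TFIIH members lay between 0.02 and 0.08 and did not pass.

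Pol II itself had 1 of its 13 members lower and 1 higher, beside 20.2% and 11.2% of all genes tested, and its median log2 fold change was 0.13. Polr2g, the RPB7 subunit of the stalk, was at 57.2, 57.1 and 54.8 CPM in WT and 64.8, 62.3 and 67.1 CPM in Trf2-/- mice. The genotypes do not overlap and the log2 fold change was 0.20 (standard error 0.05, edgeR quasi-likelihood adjusted p = 0.0208). Polr2i, the RPB9 subunit, was at 37.0, 40.2 and 37.2 CPM in WT and lower at 31.3, 33.5 and 30.6 CPM in Trf2-/- mice (log2 fold change -0.26, edgeR quasi-likelihood adjusted p = 0.0148). It shares 26.8% of its exon bases with Tbcb on the opposite strand.

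Polr2a, the largest subunit and the one that carries the C-terminal repeats, varied between WT mice, at 82.2, 77.1 and 117 CPM. The Trf2-/- mice gave 126, 108 and 126 CPM, so WT mouse 3 lay above the lowest of them (log2 fold change 0.38, standard error 0.14, edgeR quasi-likelihood adjusted p = 0.0717). Polr2b was at 279, 285 and 286 CPM in WT and 294, 301 and 324 CPM in Trf2-/- mice, with a log2 fold change of 0.11 that did not pass (edgeR quasi-likelihood adjusted p = 0.112). Its identifier shares 81.6% of its exon bases with a second gene on the same strand, so its level is uncertain. Polr2l was low, between 5.63 and 6.96 CPM in WT and between 6.98 and 8.98 CPM in Trf2-/- mice (log2 fold change 0.34, standard error 0.14, edgeR quasi-likelihood adjusted p = 0.105).

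Mediator had 9 of its 30 members lower and 3 higher, beside the same 20.2% and 11.2% of all genes, with a median log2 fold change of 0.0021. By module, assigned from general knowledge of the complex, 4 of 9 tail members, 4 of 9 middle members and 0 of 7 head members were lower, and the modules were not tested against each other. Med24, a tail subunit, was read at 139, 139.9 and 140.3 CPM in WT and at 99.99, 103 and 107 CPM in Trf2-/- mice, which are well apart. Its log2 fold change was -0.44 (standard error 0.04, edgeR quasi-likelihood adjusted p = 0.000439). Med26, the subunit that joins Mediator to Pol II elongation factors, was at 138, 123 and 124 CPM in WT and 95.6, 94.5 and 96.2 CPM in Trf2-/- mice. No values of the genotypes overlap, and the log2 fold change was -0.43 (standard error 0.05, edgeR quasi-likelihood adjusted p = 0.000893). The other lower members of tail and middle were Med16 (-0.41), Med28 (-0.29) and Med15 (-0.18), and Med9 (-0.25), Med7 (-0.22) and Med1 (-0.20).

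The kinase module, which binds Mediator reversibly, held members that moved in opposite directions. Med12l was at 42.0, 32.1 and 34.2 CPM in WT and at 28.1, 25.2 and 19.7 CPM in Trf2-/- mice, with WT mouse 1 and Trf2-/- mouse 3 farthest out (log2 fold change -0.56, standard error 0.14, edgeR quasi-likelihood adjusted p = 0.0145). Without WT mouse 1 its log2 fold change was -0.44 and the call was lost (edgeR quasi-likelihood adjusted p = 0.0589). The gene shares 16.1% of its exon bases with Igsf10 on the opposite strand, which was higher (log2 fold change 0.73). Med12, its X-linked relative, was at 37.9, 40.7 and 45.7 CPM in WT and at 45.8, 49.4 and 52.2 CPM in Trf2-/- mice, WT mouse 3 nearly reaching the lowest Trf2-/- mouse (log2 fold change 0.25, standard error 0.08, edgeR quasi-likelihood adjusted p = 0.0471).

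Med14, the X-linked scaffold, was low at 15.4, 16.0 and 18.2 CPM in WT and was 19.9, 20.0 and 20.2 CPM in Trf2-/- mice. Its log2 fold change was 0.28 (standard error 0.08, edgeR quasi-likelihood adjusted p = 0.0351). Med21, in the middle module, was at 45.5, 46.7 and 43.7 CPM in WT and at 52.5, 58.4 and 52.1 CPM in Trf2-/- mice (log2 fold change 0.26, standard error 0.06, edgeR quasi-likelihood adjusted p = 0.0134). Each of the 4 calls of a higher member, Med14, Med21, Med12 and Polr2g, was lost in at least 1 of the fits that left out a mouse, and without WT mouse 1 or WT mouse 2 only 1 member was called higher. In those fits the lost calls had edgeR quasi-likelihood adjusted p values from 0.0506 to 0.132 for Med14 (without WT mouse 1 or 2 or any 1 Trf2-/- mouse), 0.0504 to 0.163 for Med12 (without the same mice) and 0.0559 to 0.0718 for Polr2g (without any 1 WT mouse or Trf2-/- mouse 1). Med21 was lost at 0.0518 without WT mouse 3 and at 0.0501 without Trf2-/- mouse 2. The replicate block also ended the calls of Med14 (edgeR quasi-likelihood adjusted p = 0.0537) and Polr2g (0.0524), DESeq2's Wald test that of Med14 (adjusted p = 0.0534), and a minimum of 10 counts in every mouse that of Med12 (edgeR quasi-likelihood adjusted p = 0.0524).

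The TFII-I family are transcription factors that bind initiator and E-box elements and carry a TFII name for historical reasons. All 3 members were lower, beside 20.2% of all genes tested. Gtf2ird2 was at 24.7, 23.1 and 21.9 CPM in WT and at 11.15, 11.32 and 10.999 CPM in Trf2-/- mice. The genotypes stood far apart, with a log2 fold change of -1.06 (standard error 0.08, edgeR quasi-likelihood adjusted p = 0.000183), which with library size alone was -0.96 and so under 2-fold. Gtf2ird1 was at 26.6, 27.2 and 26.9 CPM in WT and 14.7, 17.4 and 16.7 CPM in Trf2-/- mice (log2 fold change -0.73, standard error 0.08, edgeR quasi-likelihood adjusted p = 0.000522). Gtf2i changed least, from 193, 189 and 189.5 CPM in WT to 166, 168 and 168 CPM in Trf2-/- mice (log2 fold change -0.19, edgeR quasi-likelihood adjusted p = 0.00758). The 3 genes are neighbours on NCBIM37 chr5:134659889-134932581 and are related in sequence, so reads common to more than 1 of them make their separate levels uncertain, and Gtf2ird2 also shares 6.48% of its exon bases with Ncf1 on the opposite strand.

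Of the TAF-named genes outside TFIID, Taf1b, an SL1 subunit of the Pol I machinery, and Taf6l, the SAGA counterpart of Taf6, were lower, beside 20.2% of all genes tested. Taf1b was at 91.1, 90.4 and 95.2 CPM in WT and 71.5, 71.8 and 69.1 CPM in Trf2-/- mice, which do not overlap (log2 fold change -0.38, standard error 0.05, edgeR quasi-likelihood adjusted p = 0.000816). Taf6l was at 24.6, 25.7 and 23.4 CPM in WT and 18.2, 19.5 and 19.3 CPM in Trf2-/- mice (log2 fold change -0.37, standard error 0.07, edgeR quasi-likelihood adjusted p = 0.00459). Taf1c, Taf1d, Taf5l and Taf15 did not pass, with log2 fold changes from -0.01 to 0.21.

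Pairs of relatives were then set against each other within each mouse, since a ratio within a library does not depend on how libraries are scaled. The log2 ratio of RPKM was compared over 9 pairs with an exact two-sided permutation test, for which 3 mice against 3 cannot give a p under 0.1, and which therefore cannot pass 0.05. The ratio of Tbpl1 to Tbp was 7.93, 7.89 and 7.90 in WT mice and 2.19, 2.35 and 2.08 in Trf2-/- mice, so Tbpl1 remained above its relative per deposited gene length in all of them. In CPM, which is not scaled to length, Tbpl1 lay below Tbp in each Trf2-/- mouse. The ratio of Gtf2a1l to Gtf2a1 was 5.23, 5.44 and 5.44 in WT and 3.16, 3.37 and 2.45 in Trf2-/- mice. These changes of -1.84 and -0.86 on the log2 scale did not overlap between genotypes and gave the smallest p the exact test allows, 0.1 (0.15 adjusted over the 9 pairs).

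The pairs Taf6l over Taf6 (from a mean of 0.218 to 0.389), Taf9b over the first Taf9 entry (from 0.0591 to 0.0862), Taf7l over Taf7 (from 1.75 to 2.06) and Med12l over Med12 (from 0.62 to 0.351) also did not overlap and gave an exact permutation p of 0.1. Of their log2 changes, 0.84, 0.53, 0.24 and -0.82, the first comes with a larger fall of Taf6 than of Taf6l, and the second with a fall of Taf9 and a Taf9b value that did not pass (log2 fold change 0.05). Taf7l stood above Taf7 in every mouse, and Taf7, the broadly expressed form, had a log2 fold change of 0.02. The 3 further pairs overlapped between genotypes. Their mean ratios were 2.90 and 2.83 for Taf4b over Taf4a, 0.677 and 0.680 for Taf5l over Taf5, and 0.489 and 0.477 for Med13l over Med13 in WT and Trf2-/- mice, with exact permutation p values of 0.8, 1 and 0.4 and standard errors of the log2 change of 0.08, 0.10 and 0.04. The single genes of these pairs, Taf4a, Taf5l, Taf5, Med13l and Med13, had log2 fold changes of 0.15, -0.01, -0.01, 0.13 and 0.16 and did not pass.

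**Figure D5:**
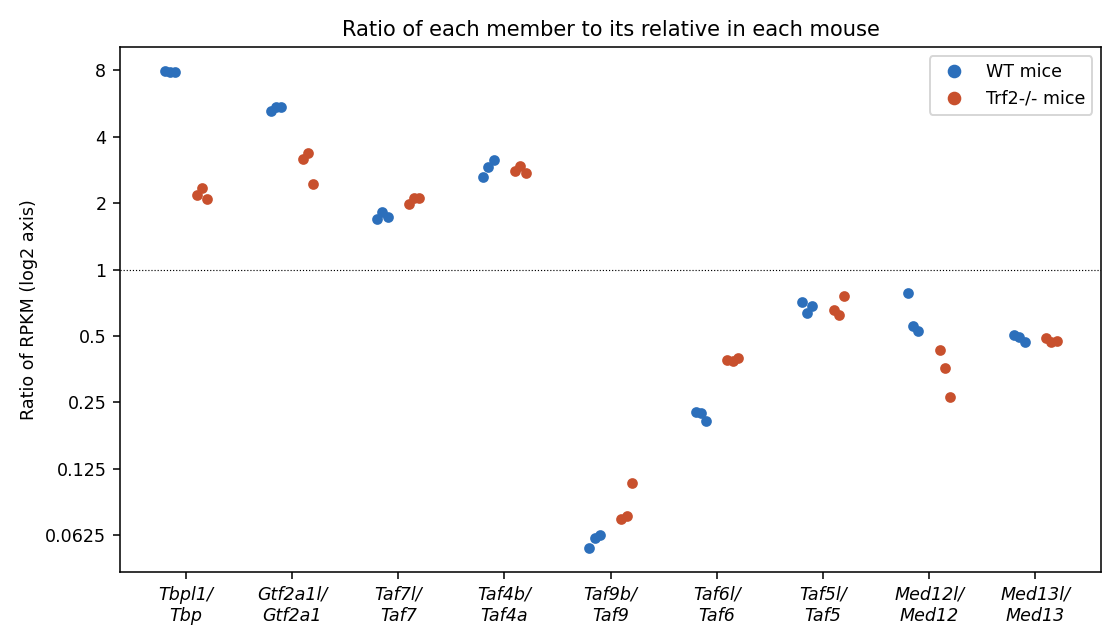
Ratio of RPKM of each member to its relative in each mouse (log2 axis, 1 point per mouse, dotted line at 1). The 3 WT and 3 Trf2-/- points separate for 6 of the 9 pairs, downward for Tbpl1/Tbp, Gtf2a1l/Gtf2a1 and Med12l/Med12 and upward for Taf7l/Taf7, Taf9b/Taf9 and Taf6l/Taf6. Tbpl1 is the gene knocked out. Among levels of single genes, 26.8% of all tested were lower and 22.3% higher without overlap, and no such share was computed for ratios.

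The X chromosome carries 5 members. These were Taf1, Taf7l, Taf9b, Med12 and Med14, and all of them had log2 fold changes above 0 (median 0.25), of which 2 were called higher and 0 lower. Over all 647 X genes tested, 22.1% were higher and 1.24% lower, with a median of 0.20. The 79 autosomal members had 27 lower and 2 higher and a median of -0.01, beside 21.0% lower and 10.7% higher of all autosomal genes tested, with a median of 0.03. The split of the members between X and autosomes was not tested.

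Genes linked to this machinery that the name rule leaves out were read from a list of 61, of which 60 passed the filter (Ell3 did not). The list includes 23 pausing and elongation genes, 17 Pol I and Pol III factors and 9 SAGA genes, so its shares are not those of Pol II general factors alone. Of the 60 genes, 13 (21.7%) were lower and 4 (6.67%) higher, beside 20.2% and 11.2% of all genes tested, and the median log2 fold change was 0.0025. Among the 4 partners of the TBP family and TFIIA 3 were lower, Dr1 and Drap1, which together form the TBP inhibitor NC2, and Btaf1, the ATPase that removes TBP from DNA, with log2 fold changes of -0.34, -0.21 and -0.25 (edgeR quasi-likelihood adjusted p = 0.00593, 0.0283 and 0.00458). Drap1 and Btaf1 were named after their values were seen. Tada3, a SAGA subunit, had the largest decrease of the list at -0.43 (standard error 0.06, edgeR quasi-likelihood adjusted p = 0.00107), and 3 of the 9 SAGA genes were lower. In the elongation group 2 of 22 were lower and 3 higher, with Tcea2, a germ cell form of the elongation factor TFIIS, at -0.34, Tcea1, the form found in most cells, at 0.27, and Eaf1, a partner of the ELL elongation factors, at 0.31. Ubtf, the upstream binding factor of Pol I, was at 0.22, the only higher gene of 17 Pol I and Pol III factors, 3 of which were lower. Of the CAK and further TFIIH subunits 2 of 5 were lower, and of the kinase module partners of Mediator none of 3 passed. Without any 1 WT mouse, the calls of Tcea1 and Ubtf were lost, and that of Tcea1 also without Trf2-/- mouse 1 or 3 (edgeR quasi-likelihood adjusted p values up to 0.105).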

How the data were processed

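RNA-seq libraries were made with a stranded total RNA kit after depletion of ribosomal RNA and read as single ends of 50 bases. According to the submitters' processing notes, CASAVA 1.8.2, TopHat2 2.0.10, Bowtie2 2.1.0, HTSeq 0.5.4p3 and DESeq2 1.0.19 were used with mm9 (NCBIM37). The authors deposited raw counts per gene for each mouse, which were used here. Their 12 columns of normalized values were not used. The annotation release and the strand setting of the counting are not given in the sources used here, so genes that overlap on opposite strands may share reads. Of the members, 81 matched the coordinates of a reference annotation of NCBIM37, and 29 had an exon overlap with another gene.

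Counts on genes ran from 15187062 to 29859347 per mouse, and 3 counts, the limit that a count of 0 allows, are 0.105 to 0.190 CPM (counting error only). With edgeR 4.0.16 (R 4.3.3), filterByExpr kept 16924 genes holding 99.9% of the reads, and genotypes were compared with TMM factors, glmQLFit, glmQLFTest and Benjamini-Hochberg adjustment over all of these (biological coefficient of variation 0.0838). Calls needed an adjusted p under 0.05. Standard errors were derived from the fold change and the F statistic. DESeq2 1.42.0 was an alternative, and both were tested on simulated counts. Replicates were checked for a library deposited more than 1 time, and none was found. RPKM used the deposited gene lengths.

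The name rule uses no measured value, but the members, lists, pairs and alternatives were chosen with earlier results of these data known. The genes named were Tbpl1 and Tbp, members at least 2-fold changed, the 10 members with the largest called decreases and up to 10 with the largest called increases, both genes of each pair, the highest and lowest member per length in TFIID, Pol II and Mediator, and 3 partners in each direction. Promoter windows came from RefSeq (GRCm38.p6), and motifs were searched on both strands.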

Additional observations from a re-analysis of the deposited data

How the results depend on the processing

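The 27 lower calls of the members numbered 18 to 26 under the other fits, 18 of them with library size alone and 18 at an adjusted p under 0.01, and 19 to 25 when 1 mouse was left out, and in each of these fits all lower calls were among the 27. The 4 higher calls were fewer or more numerous by setting, with 25 under library size alone, 8 with no filter, 0 at an adjusted p under 0.01 and 1 to 4 with 1 mouse left out. The higher calls were not always the same members. Without Trf2-/- mouse 1 or without Trf2-/- mouse 2, 4 members were called higher although Med14 and Med12 were not, so other members were among them. Library size alone also moved the members' median log2 fold change to 0.0919 and gave log2 fold changes above 0 for Taf5l (0.0857), Taf5 (0.0801) and Med10 (0.0900), all 3 of them without a call. The partner genes were 5 lower and 20 higher under library size alone, 6 lower and 1 higher at an adjusted p under 0.01, and 7 to 10 lower and 1 to 5 higher with 1 mouse left out. Leaving out 1 mouse changed the sign of log2 fold changes that were not called, which ran from -0.0391 to 0.0949 for Taf9b, -0.116 to 0.0431 for Taf5l, -0.0356 to 0.0617 for Taf7, -0.0461 to 0.0156 for Taf5 and -0.0489 to 0.0417 for Med10, and of the log2 ratio changes of Taf4b over Taf4a (-0.0975 to 0.0265) and Taf5l over Taf5 (-0.0783 to 0.0628). The cause was not tested for any of these.

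The genotypes carry the same replicate numbers, and same-numbered mice did not deviate together (correlations over genes of -0.0589, -0.083 and -0.0844). No mouse correlated best with the mouse of its own number. The correlations are small and come from values centred within each genotype, so they cannot decide whether same-numbered mice share more than a number. With the replicate block 25 members were lower and 5 higher, the named calls of Med14, Polr2g and Tcea1 were lost (adjusted p 0.0537, 0.0524 and 0.0532), and Taf7l and Med13 passed (0.0392 and 0.0382). The number of mice limits what can be seen of small differences, since with 3 mice per genotype an exact test cannot pass 0.05 for any ratio.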
